A study of Mus musculus with 21 samples.

Results

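NRF2, encoded by Nfe2l2, and 9 redox genes known as its targets were followed in mouse liver with and without the phospholipid transporter Mdr2 (Abcb4). The genes were taken by name: Nfe2l2, Nqo1, Gclc, Gclm, Hmox1, Txnrd1, Srxn1, G6pdx, Prdx1 and Ugdh, without the glutathione transferases, and every probe set annotated to one of them was used. Of these 10 genes, 8 had probe sets of their own, 14 in all, among the 22690 probe sets and 12393 named genes of the array. Prdx1, a peroxiredoxin that reduces hydrogen peroxide, had only 5 probe sets that also carry the symbol of its pseudogene Gm21399, so no level is given for it. G6pdx, which makes NADPH in the pentose phosphate pathway, had no annotated probe set. The 8 measurable genes all passed the filter on low values, and 7320 genes passed it in all.

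Total RNA of whole liver was hybridised to 21 Affymetrix arrays, 1 sample each. All mice were 9-month-old males and all had 30% of the liver resected. Knockout (KO) mice were Mdr2-/- of strain FVB129P2, and controls were of strain FVB129P2/FVBNJ, so genotype and strain background cannot be told apart. The lobe removed at surgery was the day 0 sample (6 KO, 3 control), and liver was taken again on day 2 (3 KO, 3 control) and day 6 (3 KO, 3 control). The 6 KO mice gave a day 0 sample and 1 later sample each. Control mice 263 and 265 gave samples on days 0 and 2 and mouse 303 on days 0 and 6, while mouse 264 (day 2) and mice 392 and 393 (day 6) gave a later sample only. Within a group each array was therefore a different mouse. A day 0 lobe comes from a liver with no earlier surgery, and Mdr2 is lacking in the whole animal from birth.

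In a resting cell the adaptor KEAP1 holds NRF2 in the cytoplasm and delivers it for degradation. Oxidants and electrophiles modify KEAP1, and NRF2 then enters the nucleus, pairs with a small MAF protein and binds antioxidant response elements (AREs) near its target genes. The targets treated here make glutathione (Gclc, Gclm), recycle oxidised thioredoxin and peroxiredoxin (Txnrd1, Srxn1), and reduce peroxide (Prdx1) and quinones (Nqo1). They also supply NADPH (G6pdx), break down heme (Hmox1) and make the sugar donor for glucuronidation (Ugdh). Much of the control of NRF2 acts on the protein, which these arrays do not measure. In liver these enzymes handle drugs, bile acids and peroxides, and Mdr2-deficient liver is a model of bile-borne chronic injury with inflammation and later tumours.

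The genes of the regulator and of its targets are shown here by the stretch before the transcription start that carries a short form of the ARE or the related AP-1 site, because the genes that differed between groups and those that did not both hold such letters. Sequences are from RefSeq, build GRCm38.p6, which is the C57BL/6J genome and not that of the strains used. They run 5′ to 3′ on the strand of the gene, and capitals mark matches on either strand to the ARE core, TGACNNNGC, or to AP-1, TGANTCA.
Nfe2l2, chr2:75704875-75704913, minus strand: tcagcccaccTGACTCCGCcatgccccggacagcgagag
Srxn1, chr2:152105402-152105505, plus strand: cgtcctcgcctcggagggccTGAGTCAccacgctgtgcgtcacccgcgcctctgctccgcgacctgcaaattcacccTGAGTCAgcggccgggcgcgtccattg
Ugdh, chr5:65435908-65435994, minus strand: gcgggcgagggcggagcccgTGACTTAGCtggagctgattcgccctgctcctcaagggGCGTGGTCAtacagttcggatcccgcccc
Gclm, chr3:122245403-122245451, plus strand: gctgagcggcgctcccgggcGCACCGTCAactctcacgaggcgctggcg
Txnrd1, chr10:82859094-82859142, plus strand: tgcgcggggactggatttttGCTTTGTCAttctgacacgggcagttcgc
Windows of 250 bases before and 50 after the start were on hand for 8 of the 10 genes, Gclc and Hmox1 being the exceptions. The ARE core occurs in 12.4% of the 32851 windows of all genes and AP-1 in 7.81%. Nfe2l2, Gclm and Txnrd1 (in 1 of its 3 windows) each hold 1 ARE core match, as do G6pdx and Prdx1. Ugdh holds 2, which 0.986% of all windows do. The Srxn1 stretch shows 2 AP-1 matches, and the Prdx1 window, which is not printed, also holds 2. Of all windows, 0.46% hold 2 or more. The ARE core match of Srxn1 lies just after the start, at positions 29 to 37. The Srxn1 AP-1 match nearer the start is followed by gc. It differs from the ARE core searched only by a G in place of the C of TGAC. Letters with that G were not counted as ARE core matches in any window. The Nqo1 window holds neither motif. A match is a description of the letters and not a measured binding site.

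Values below are log2 signals, so a difference of 1 is a doubling, and differences are KO minus control or later minus earlier day with their standard error (SE). A gene was called where limma gave a Benjamini-Hochberg adjusted p under 0.05 over all 7320 genes. Abcb4, the targeted gene, read 9.23 to 10.33 in the 9 control arrays and 7.25 to 8.96 in the 12 KO arrays, without overlap; whether its probe set lies in the deleted part was not tested. Hepatocyte markers were abundant in every group, and the mean of the 9 markers ran from 13.26 to 13.82 over all arrays. In 3 arrays the signal of the Gapdh control probe sets fell off towards the 5′ end by more than 1, which can mark shortened RNA: control day 2 mouse 265 (9.5), KO day 0 mouse 337 (2.03) and control day 2 mouse 263 (1.58). The 2 control day 2 arrays among them held the lowest value of 6 of the 8 genes. Without these 3 arrays, control day 2 is mouse 264 alone. Day 2 comparisons with control liver under that setting therefore rest on 1 control array.

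**Figure D1:**
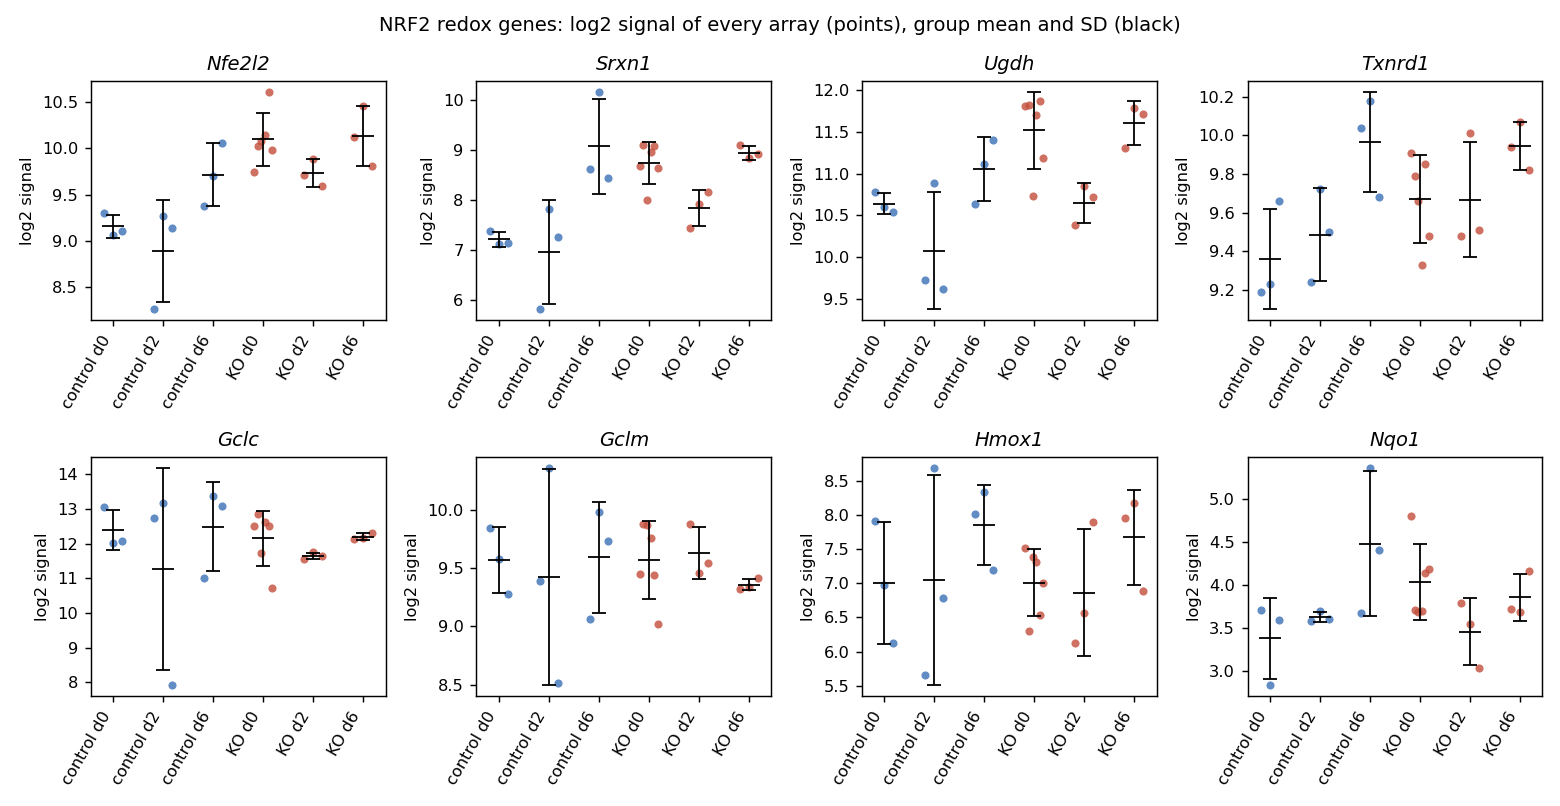
Log2 signal (y axis, with its own range in each panel) of the 8 measurable genes in the 6 groups (x axis; d0, d2 and d6 are days after resection). Each point is 1 array, blue for control and red for KO, and black bars are the group mean and SD (n = 6 for KO d0, n = 3 otherwise); Nfe2l2 and Srxn1 in KO d0 lie above all 3 control d0 points, and Srxn1 in control d6 reaches 8.43 to 10.16.

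Before resection, Nfe2l2 and Srxn1 were higher in KO than in control liver, 1.92-fold and 2.88-fold, and the other 6 genes passed no test. The call count of 2 of 8 members, both higher, stands against 9.66% of all tested genes called in this comparison and 6.79% called higher. The members' median difference was 0.48, and that of all genes 0.02. Members whose day 0 arrays did not overlap between the genotypes, KO higher, were also 2 of 8, against 11.6% of all genes.

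Nfe2l2, the regulator itself, read 9.30, 9.06 and 9.11 in control mice 263, 265 and 303 on day 0. In the 6 KO lobes its lowest value was 9.75, its median 10.05 and its highest 10.61. Every KO lobe lay above every control lobe, and the difference was 0.94 (SE 0.23, limma adjusted p = 0.0117). Leaving out control mouse 265 or control mouse 303 ended this call, with an adjusted p of up to 0.0673, while the difference stayed between 0.77 and 1.01 under every alternative run.

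Srxn1, sulfiredoxin, repairs peroxiredoxins that have been over-oxidised by peroxide. It read 7.38, 7.11 and 7.14 in control mice 263, 265 and 303 on day 0. In KO lobes it ran from 7.99 over a median of 8.81 to 9.10. The control values lay close together, with an SD of 0.15, and the lowest KO lobe, mouse 258, lay above them all. The difference was 1.53 (SE 0.39, limma adjusted p = 0.0169). This call was lost without control mouse 265 or 303 and with the mean of the gene's probe sets, with an adjusted p of up to 0.15 and a difference between 0.84 and 1.68. The other 2 Srxn1 probe sets with signal showed the same sign without passing, at 1.27 (SE 0.50, adjusted p = 0.139 over all probe sets) and 0.92 (SE 0.54, adjusted p = 0.368). The remaining probe set stayed between 3.13 and 4.22 on all arrays, at the level of background. The main probe set is of a class that can match more than 1 transcript.

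Ugdh makes UDP-glucuronate, which glucuronosyltransferases attach to bilirubin, bile acids and drugs. It read 10.78, 10.60 and 10.54 in control mice 263, 265 and 303, and 10.73, 11.75 and 11.87 as the lowest, median and highest of the KO lobes. The KO lobe of mouse 258 fell within the control range, and the other KO lobes lay above it. The difference of 0.88 (SE 0.29) missed the threshold with a limma adjusted p of 0.0596. It passed under 6 of the alternatives, among them quantile normalization and leaving out KO mouse 258, with an adjusted p as low as 0.02.

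Gclc and Gclm, the catalytic and modifier subunits of the enzyme that limits glutathione synthesis, gave differences of −0.24 (SE 0.82) and 0.00 (SE 0.30) at day 0. The 95% interval ran from −0.63 to 0.64 for Gclm and from −1.96 to 1.48 for Gclc, where KO mouse 337, the lobe with a Gapdh difference of 2.03, read 10.71 against 11.73 to 12.84 in the other 5. Txnrd1, thioredoxin reductase of the cytosol, differed by 0.31 (SE 0.18, limma adjusted p = 0.336). Hmox1, the inducible heme oxygenase, differed by 0.00 (SE 0.55). Nqo1, the quinone reductase often used to read NRF2 activity, differed by 0.66 (SE 0.32, limma adjusted p = 0.23) at signals close to background, 3.37 ± 0.47 (SD, n = 3) in control and 4.03 ± 0.44 (SD, n = 6) in KO lobes. Of 21 arrays, Nqo1 exceeded 4 in 6.

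At the same time point, markers of stellate cells and matrix differed by far more than these genes. Of 6 tested, 5, all but Acta2, were called higher in KO lobes, where 6.79% of all genes were. The mean of the list of 8 ran from 6.04 to 7.68 in KO lobes against 4.06 to 4.29 in control lobes. Des and Lrat were at or under 4 on every array. Macrophage markers (9 measured of 11) had overlapping means of 7.01 to 7.45 in KO and 6.67 to 7.43 in control lobes, but single markers differed in opposite directions. Lyz2 was higher in KO lobes by 2.46 (SE 0.75, limma adjusted p = 0.0432), and Cd163 differed by −3.39 (SE 0.29, adjusted p = 7.19e-07). The part of these cells in the Nfe2l2 and Srxn1 differences was not tested, and in whole liver fewer cells of a type and less RNA per cell cannot be told apart. Centring every array on its median moved the median difference of all genes from 0.02 to −0.15 at day 0. It also turned the split of all called genes from 497 higher and 210 lower to 363 higher and 404 lower. Under it Nfe2l2 and Srxn1 still passed, with differences of 0.77 and 1.36.

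**Figure D2:**
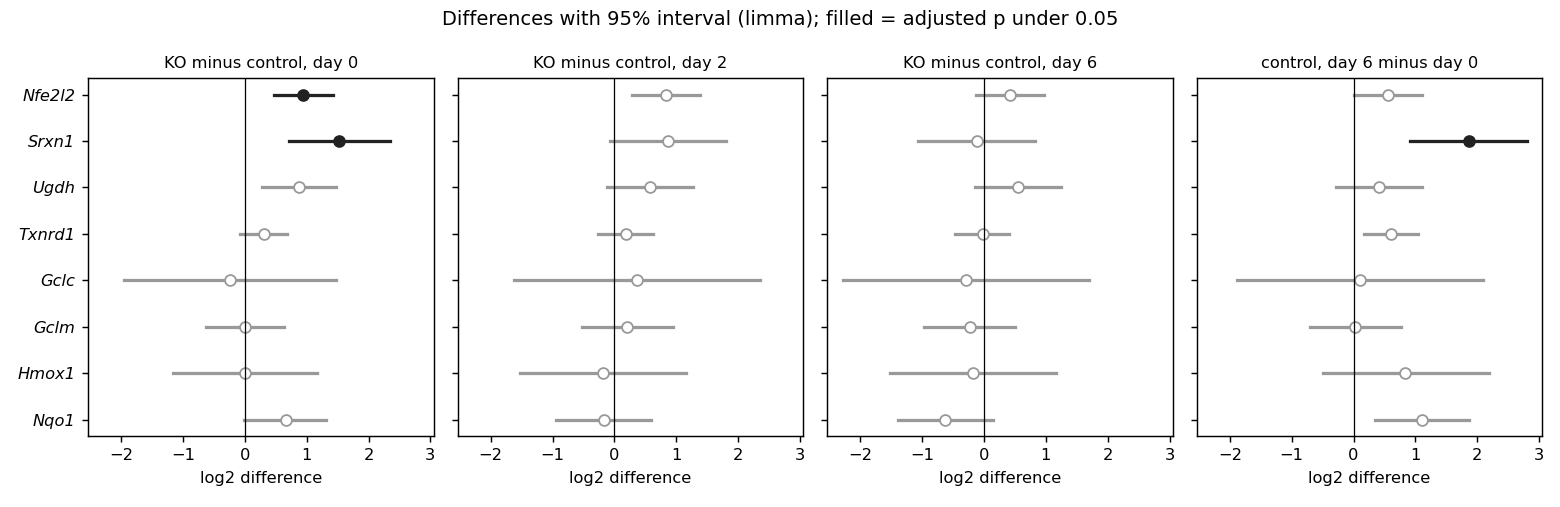
Log2 difference (x axis) of each gene (rows) with its 95% interval from limma in 4 comparisons (panels). Filled symbols passed an adjusted p of 0.05: Nfe2l2 (0.94) and Srxn1 (1.53) for KO minus control on day 0, and Srxn1 (1.86) for control liver on day 6 minus day 0.

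On day 2 no member was called between the genotypes (0 of 8 against 5.71% of all genes). An unadjusted p under 0.05 was found for 1 of 8, Nfe2l2, and for 1784 of all 7320 genes. Nfe2l2 read 8.26, 9.27 and 9.14 in control mice 263, 264 and 265 and 9.71, 9.89 and 9.59 in KO mice 250, 254 and 258. All 3 KO samples lay above all 3 controls, as for 8.28% of all genes on this day, and the difference was 0.84 (SE 0.26, limma adjusted p = 0.0635). The difference depended on the control arrays: it was 1.03 and passed without mouse 264 (adjusted p = 0.0213), and 0.53 without mouse 263 (adjusted p = 0.194). Without the arrays of high Gapdh difference, which leaves control mouse 264 alone on day 2, it was 0.46.

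Srxn1 on day 2 was 5.81, 7.81 and 7.26 in control mice 263, 264 and 265 and 7.44, 7.91 and 8.15 in KO mice 250, 254 and 258. The genotypes overlapped through control mouse 264, and the difference of 0.87 (SE 0.45) did not pass. It was 0.30 without control mouse 263. Without the arrays of high Gapdh difference, that is against control mouse 264 alone, it was 0.02. Ugdh was 9.72, 10.89 and 9.62 in the same controls and 10.38, 10.85 and 10.72 in the same KO mice, a difference of 0.57 (SE 0.33) that also did not pass. The 2 low Ugdh values are those of the control arrays with a high Gapdh difference, mice 263 and 265. Without the 3 arrays of high Gapdh difference, again against control mouse 264 alone, the sign of the Ugdh difference turned, to −0.24. Without control mouse 264 the Ugdh difference passed, at an adjusted p of 0.0401.

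Day 2 control values of Gclc were 12.75, 13.16 and 7.92, the last in mouse 265, whose Gapdh difference was 9.5. KO values were 11.56, 11.75 and 11.63, with an SD of 0.10. The second Gclc probe set showed a smaller drop in mouse 265, to 9.44 against 9.70 and 10.96 in mice 263 and 264. Gclm was also lowest in mouse 265, at 8.51, and highest of all 21 arrays in mouse 264, at 10.36. For neither subunit did a genotype difference stand out from this spread, with 0.37 (SE 0.95) for Gclc and 0.21 (SE 0.35) for Gclm.

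On day 6 no member was called between the genotypes (0 of 8 against 1.73% of all genes). No member had an unadjusted p under 0.05, against 944 of all 7320 genes. Srxn1 was 8.62, 10.16 and 8.43 in control mice 303, 392 and 393 and 9.10, 8.83 and 8.91 in KO mice 312, 332 and 337. The KO samples lay inside the control range, and the difference was −0.12 with a 95% interval from −1.06 to 0.82. Nfe2l2 was 9.38, 9.70 and 10.06 in the controls and 10.12, 10.46 and 9.81 in the KO mice, a difference of 0.42 with an interval from −0.13 to 0.97. Ugdh was 10.64, 11.12 and 11.40 in the controls and 11.31, 11.79 and 11.72 in the KO mice, a difference of 0.55 with an interval from −0.14 to 1.25. The upper ends of the last 2 intervals take in the day 0 differences of Nfe2l2 (0.94) and Ugdh (0.88). The interval of Srxn1 does not take in 1.53, but it overlaps the day 0 interval of Srxn1, 0.71 to 2.34. Tested directly, the change of the Srxn1 difference from day 0 to day 6 was not called (−1.65, SE 0.59, limma adjusted p = 0.612). Nqo1 differed the other way, by −0.63 (SE 0.37, limma adjusted p = 0.526).

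In control liver, Srxn1 was higher on day 6 than on day 0 by 1.86 (SE 0.45, limma adjusted p = 0.0298), 3.63-fold, with all 3 day 6 values above all 3 day 0 values. It was the only member called of 8, against 2.86% of all genes called and 2.12% called higher. These day 0 controls are the same 3 arrays as in the genotype comparison. The call was lost when any of the 3 day 0 controls or control mouse 392 was left out, with no filter, with the mean of the probe sets and with only these groups in the fit, the adjusted p reaching 0.182 and the difference lying between 1.14 and 2.18. In mouse 303, sampled on both days, Srxn1 went from 7.14 to 8.62. The day 6 array of mouse 303 had a Gapdh difference of 0.94, just under the limit of 1. Its actin difference, taken in the same way, was 2.72, against 2.48 in KO day 0 mouse 337.

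Members whose control arrays did not overlap between days 0 and 6, day 6 higher, were 3 of 8 (Srxn1, Nfe2l2 and Txnrd1), against 12.2% of all genes. Txnrd1 read 9.19, 9.23 and 9.66 on day 0 in mice 263, 265 and 303 and 10.04, 10.18 and 9.68 on day 6 in mice 303, 392 and 393. Its difference of 0.61 (SE 0.21) did not pass, with a limma adjusted p of 0.14, and neither did that of Nfe2l2, 0.56 (SE 0.26, adjusted p = 0.297). Nqo1 read 3.67, 5.36 and 4.40 on day 6 in mice 303, 392 and 393 against 3.70, 2.83 and 3.59 on day 0 in mice 263, 265 and 303. Its difference of 1.10 (SE 0.37, adjusted p = 0.125) passed only without control day 6 mouse 303, at 0.027. Mouse 392 held the highest value of all 21 arrays for 4 of the 8 genes, Nqo1, Gclc, Txnrd1 and Srxn1. An unadjusted p under 0.05 was found for 4 of 8 members and for 1195 of all 7320 genes. The members' median difference was 0.58 against 0.00 over all genes.

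Hmox1 is strongly expressed by Kupffer cells, the macrophages of the liver. In control liver it read 7.91, 6.98 and 6.13 on day 0 in mice 263, 265 and 303, and 8.01, 8.34 and 7.20 on day 6 in mice 303, 392 and 393, a difference of 0.84 (SE 0.64) that did not pass. Mean macrophage marker levels were 7.43, 7.20 and 6.67 in these day 0 samples and 9.95, 8.60 and 7.03 in these day 6 samples. Of the 9 macrophage markers 1, Marco, was called higher on day 6, by 5.78 (SE 1.32, limma adjusted p = 0.0208). Leukocyte markers (8 measured, Cd3e, Cd3g, Cd79a and Cd79b at or under 4 on every array) had means of 3.35 to 3.96 on day 0 and 3.91 to 5.65 on day 6. The part of these cells in the day 6 values was not tested.

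No member was called in control liver on day 2 against day 0 (0 of 8 against 9.51% of all genes). None of the 8 had an unadjusted p under 0.05, against 1987 of all 7320 genes. Ugdh differed by −0.56 (SE 0.33, limma adjusted p = 0.277) and Gclc by −1.11 (SE 0.95). The Gclc value rests on mouse 265, without which the difference was 0.56. Ugdh differed by 0.25 without the arrays of high Gapdh difference, which leaves mouse 264 alone on day 2. It differed by −0.97 without mouse 264, where it passed at an adjusted p of 0.0401.

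In KO liver no member was called on day 2 or on day 6 against day 0. Of all genes, 0% were called on day 2 and 0.137% on day 6. Of the members, 2 on day 2 and 0 on day 6 had an unadjusted p under 0.05, against 439 and 398 of all genes. The 2 were Ugdh, at −0.87 (SE 0.29, limma adjusted p = 0.605), and Srxn1, at −0.90 (SE 0.39, adjusted p = 0.773). Followed in the same mouse, Ugdh went from 11.81 to 10.38 in mouse 250, from 11.82 to 10.85 in mouse 254 and from 10.73 to 10.72 in mouse 258. Srxn1 went from 8.68 to 7.44, from 9.10 to 7.91 and from 7.99 to 8.15 in the same mice. For both genes mice 250 and 254 were lower on day 2, and mouse 258, which began lowest, stayed within 0.16. In mice 312, 332 and 337, sampled on days 0 and 6, Srxn1 changed by 0.15, −0.24 and 0.27, Nfe2l2 by −0.02, −0.15 and −0.17, and Hmox1 by 0.65, 1.63 and −0.13. For Srxn1 and Nfe2l2 these changes were no larger than 0.27 in either direction.

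**Figure D3:**
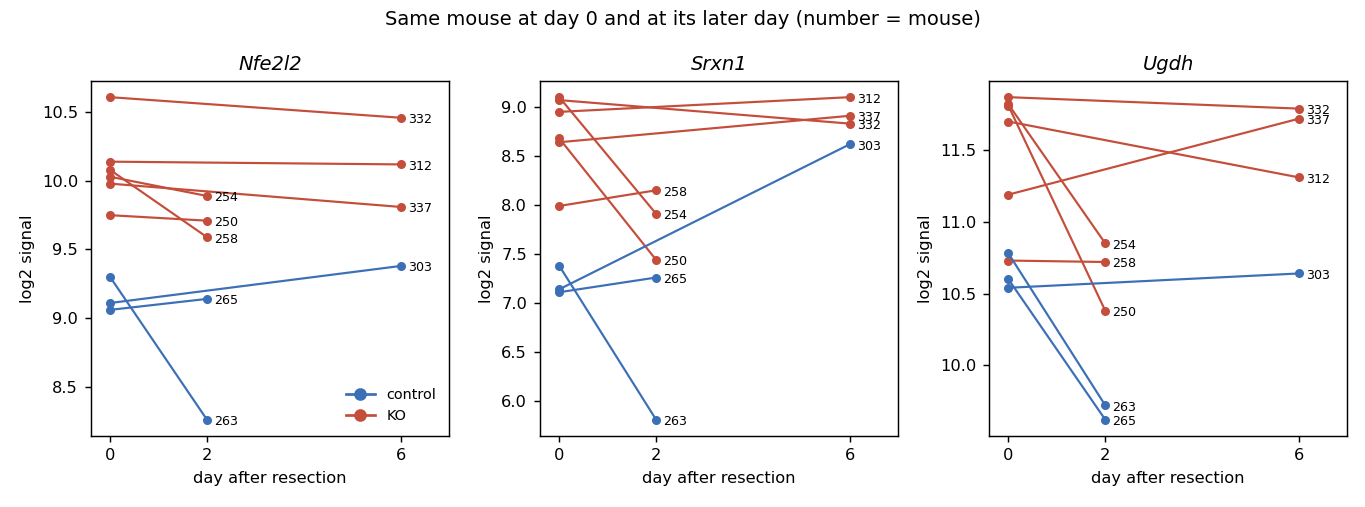
Log2 signal (y axis) of Nfe2l2, Srxn1 and Ugdh against the day after resection (x axis) for the 9 mice sampled at 2 times, KO in red and control in blue, each labelled with its mouse number. Srxn1 of control mouse 303 goes from 7.14 to 8.62 by day 6, and Srxn1 and Ugdh of KO mice 250 and 254 are lower on day 2.

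Whether the response to resection differed between the genotypes was tested as the KO change minus the control change. No member was called for day 2 (0 of 8, against 0% of all genes; 0 members and 1070 of all genes at an unadjusted p under 0.05). No member was called for day 6 either (0 of 8, against 0.164% of all genes), with 2 members and 392 of all genes at an unadjusted p under 0.05. The 2 members were Srxn1, at −1.65 (SE 0.59, limma adjusted p = 0.612), and Nqo1, at −1.28 (SE 0.48, limma adjusted p = 0.651). For Srxn1 this sets a KO change of 0.21 beside a control change of 1.86. No genotype difference in the day 6 response passed the test for any member.

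Ordered by group mean, Srxn1 ran from control day 2 (6.96 ± 1.03, SD) and control day 0 (7.21 ± 0.15) over KO day 2 (7.83 ± 0.36), KO day 0 (8.74 ± 0.41) and KO day 6 (8.95 ± 0.14) to control day 6 (9.07 ± 0.95), with n = 6 for KO day 0 and n = 3 otherwise. Only control day 0 and KO day 2 were neighbours whose arrays did not overlap. Nfe2l2 had the order control day 2 (8.89 ± 0.55), day 0 (9.16 ± 0.13) and day 6 (9.71 ± 0.34), then KO day 2 (9.73 ± 0.15), day 0 (10.10 ± 0.28) and day 6 (10.13 ± 0.33). Its neighbours without overlap were control days 0 and 6. Ugdh ran from control day 2 (10.08 ± 0.71) over control day 0 (10.64 ± 0.12), KO day 2 (10.65 ± 0.24), control day 6 (11.05 ± 0.38) and KO day 0 (11.52 ± 0.46) to KO day 6 (11.61 ± 0.26), with overlap at every step. For all 3 genes the lowest group of each genotype was day 2. In controls that group holds 2 arrays of high Gapdh difference, and without them mouse 264 alone remains. The control day 2 minus day 0 difference was then 0.11 for Nfe2l2, 0.60 for Srxn1 and 0.25 for Ugdh. With a single mouse left, RNA quality and differences between mice cannot be told apart. Neighbouring groups overlapped at every step for Nqo1, Gclc, Gclm, Hmox1 and Txnrd1.

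The 3 Txnrd1 probe sets did not behave alike. The main one ranged by only 0.99 over all arrays, from 9.19 to 10.18, the narrowest range of the 8 genes. The other 2 were near background in most samples, but in KO mice 332 and 337 on day 6 they read 6.64 and 6.71 for one and 4.97 and 4.64 for the other. KO mouse 312 on the same day read 3.55 and 2.65, within the range of the other groups. For the brighter of these probe sets the day 6 genotype difference was 2.43 (SE 0.79, limma adjusted p = 0.166 over all probe sets).

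The members did not move as 1 block across the arrays. Across the 21 arrays, which share mice, groups and RNA quality, the highest Pearson correlations between members were Nfe2l2 with Ugdh (0.798), Srxn1 with Ugdh (0.786), Gclc with Gclm (0.783) and Nfe2l2 with Srxn1 (0.771). Without the 3 arrays of high Gapdh difference these were 0.714, 0.7, 0.606 and 0.61. Within the 12 KO arrays Srxn1 and Ugdh correlated at 0.904, and Gclc and Gclm at 0.388. Gclm and Txnrd1 gave −0.024 over all arrays. Of genes outside the list, Ugdh was most like Gstm3 (0.895), a glutathione transferase, Ephx1 (0.886), the microsomal epoxide hydrolase, and Sae1 (0.882). Nfe2l2 was most like Tgif1 (0.894), Apool (0.886) and Tax1bp3 (0.864), and Srxn1 most like Lgals3bp (0.813), Psma1 (0.804) and Snx2 (0.803). The closest for Gclc was Eif5 (0.917, and 0.636 without the arrays of high Gapdh difference), for Gclm Exosc2 (0.885), for Txnrd1 Parp12 (0.792), for Hmox1 Adat2 (0.75) and for Nqo1 Rhbg (0.69). These are descriptions over 21 arrays with no test.

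**Figure D4:**
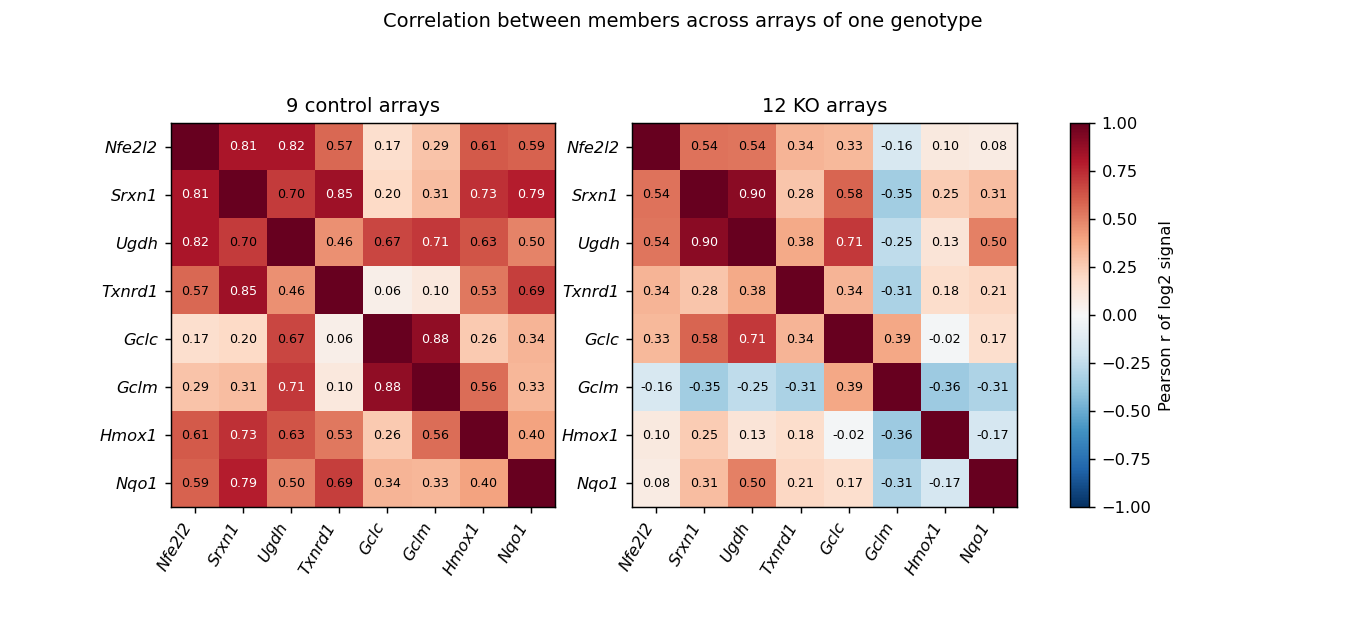
Pearson correlation of log2 signal between each pair of the 8 genes (rows and columns) over the 9 control arrays (left) and the 12 KO arrays (right), on a colour scale from −1 to 1. Srxn1 with Ugdh is the highest KO value (0.904) and Gclc with Gclm the highest control value (0.884).

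Other genes of the pathway were examined in lists. Of the genes that control NRF2 (10 tested of 13, with Keap1, Cul3, Bach1 and the small MAF genes), 0 were called by limma in any of the 9 comparisons. Per comparison, 0 to 2 of them had an unadjusted p under 0.05, against 392 to 1987 of all 7320 genes. The list's median difference at day 0 was −0.37. Of 28 other NRF2 targets, 11 of which also stand in another list, 19 were tested. Ptgr1, which reduces reactive aldehydes and prostaglandins, was higher in KO lobes at day 0 by 1.77 (SE 0.44, limma adjusted p = 0.0139), the only call of the 19 there, and their median difference was 0.13. Ptgr1 read 5.06 ± 0.38 (SD, n = 3) in control and 6.83 ± 0.40 (n = 6) in KO lobes, and 5.08 to 8.05 in control liver on day 6. Its call was lost without control mouse 265 or 303. Per comparison, 0 to 8 of the 19 had an unadjusted p under 0.05, against 392 to 1987 of all 7320 genes. The 8 were found in KO liver on day 2 against day 0, where 439 of all genes had such a p and 0% were called. The list's median difference there was −0.48, against −0.02 for all genes. For control liver on day 2, with its arrays of high Gapdh difference, the count was 6 and the list median −0.37, against 0.08. Ephx1 was lower in control liver on day 2 by −1.81 (SE 0.44, adjusted p = 0.0184). Without the arrays of high Gapdh difference, which leaves mouse 264 alone on day 2, the Ephx1 difference was −0.51. The Ephx1 call was lost without control day 0 mouse 263 or 265, without control day 2 mouse 265 and with only the groups compared. In KO liver Ephx1 read 12.73 ± 0.42 (SD, n = 6) on day 0 and 11.52 ± 0.35 (n = 3) on day 2.

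Among 8 enzymes that remove peroxide and superoxide, Gpx3, the secreted glutathione peroxidase, was higher in KO than control liver on days 0, 2 and 6, by 2.68 (SE 0.74), 3.18 (SE 0.86) and 3.59 (SE 0.86), with limma adjusted p of 0.0276, 0.0369 and 0.0358. Control levels were 2.87 to 4.43 on day 0, 2.96 to 5.49 on day 2 and 3.17 to 4.73 on day 6, around the filter level of 4, against 5.23 to 8.52, 6.79 to 7.91 and 5.41 to 8.31 in KO liver, so the size of the Gpx3 differences is uncertain. With no filter none of the 3 Gpx3 calls held. Gpx4, which reduces lipid peroxides, was higher on days 0 and 2, by 1.17 (SE 0.32, adjusted p = 0.0259) and 1.49 (SE 0.37, adjusted p = 0.0265). Its levels at day 0 were 11.64 to 11.84 in control and 12.65 to 13.16 in KO lobes. Of 6 stellate and matrix markers, 5, 3 and 1 were called higher in KO liver on days 0, 2 and 6. Of all genes, 6.79%, 2.75% and 1.24% were. Lum alone was called on day 6, and Acta2 on no day. The part of these markers in the Gpx3 and Gpx4 values was not tested. The Gpx3 and Gpx4 calls are not firm. Each was lost without some single array of the groups compared. Among these were control mice 263 and 265 on day 0 and KO mice 254 and 258 on day 2. Without the arrays of high Gapdh difference, that is against control mouse 264 alone, the day 2 differences were 2.04 for Gpx3 and 0.59 for Gpx4. Catalase (Cat) was lower in control liver on day 2 by −0.56 (SE 0.17, adjusted p = 0.0496), a call lost under 23 alternatives, among them leaving out any of the 3 control day 0 arrays.

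Of 9 tested genes of glutathione supply, Glrx, a glutaredoxin, was lower in KO lobes at day 0 by −0.62 (SE 0.19, limma adjusted p = 0.045), a call lost under 15 alternatives, among them leaving out any of the 3 control day 0 arrays. Chac1, which degrades glutathione, was higher in control liver on day 2 by 1.43 (SE 0.37, adjusted p = 0.0239), and not without control day 2 mouse 264 or 265 or control day 0 mouse 265 or 303. Of 10 tested thioredoxin and peroxiredoxin genes, Txnip, which binds and inhibits thioredoxin, was lower in control liver on day 6 by −2.26 (SE 0.47, adjusted p = 0.0125), going from 9.39 ± 0.50 to 7.13 ± 0.80 (SD, n = 3 each). That call was lost without control day 0 mouse 263 or 265. Txnrd3, a thioredoxin reductase best known from testis, was lower in KO liver on day 2 by −1.68 (SE 0.47, adjusted p = 0.0411). It read 5.24 to 6.39 in control and 3.06 to 4.89 in KO liver, around the filter level of 4, so the size is uncertain. The Txnrd3 call was lost under 12 alternatives, among them leaving out any of the 3 control day 0 arrays. It was also lost without control day 2 mouse 263 or 265 and without KO day 2 mouse 254 or 258.

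Of 7 tested genes of glucuronidation other than Ugdh, 4 were called lower in control liver on day 2, where 4.28% of all genes were. None was called in any other comparison, but in KO liver on day 2 0% of all genes were called. In control liver on day 2 the list's median difference was −0.96, and that of all genes 0.08. Ugt2b1, a glucuronosyltransferase, fell by 2.21 (SE 0.43, limma adjusted p = 0.00641) from 13.39 ± 0.21 to 11.19 ± 0.91 (SD, n = 3 each). Ugp2, which makes the UDP-glucose that Ugdh oxidises, fell by 1.31 (SE 0.28, adjusted p = 0.00933). Ugt2b34 fell by 0.70 (SE 0.18, adjusted p = 0.0209). Of these 3, each call was lost with only the groups compared in the fit, where the differences are the same. Without the arrays of high Gapdh difference, which leaves mouse 264 alone on day 2, the differences were −2.05 for Ugt2b1, −1.25 for Ugp2 and −0.52 for Ugt2b34. The calls of Ugp2 and Ugt2b34 were lost without control day 2 mouse 265 too, and that of Ugt2b34 without control day 0 mouse 265 or 303. In KO liver on day 2 against day 0 the list's median difference was −0.46, and that of all genes −0.02. There 2 of 7 had an unadjusted p under 0.05, as did 439 of all 7320 genes. Group means in KO liver on days 0 and 2 were 12.09 and 11.02 for Ugp2 and 12.39 and 11.85 for Ugt2b1. For Ugt2b34 they were 11.79 and 11.51. Of 5 tested genes of heme breakdown other than Hmox1, Hmox2, the constitutive heme oxygenase, was higher in control liver on day 2 by 0.76 (SE 0.20, adjusted p = 0.025). That call was lost without control day 2 mouse 265 or control day 0 mouse 265 or 303, and with only the groups compared. Between the genotypes on day 2 all 5 had an unadjusted p under 0.05, as did 1784 of all 7320 genes. None of the 5 was called, and their median difference was −0.69. That comparison includes control day 2 mice 263 and 265, whose arrays had a high Gapdh difference. None of 7 tested pentose phosphate genes was called by limma in any comparison. Per comparison, 0 to 2 of them had an unadjusted p under 0.05, against 392 to 1987 of all 7320 genes.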

How the data were processed

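Total RNA was extracted with Trizol and labelled from the 3′ end, per the labels' protocols. The authors deposited log2 values that were made with GCRMA, per the submitters' processing notes; the version and any other step were not given in the sources used here. GCRMA corrects background and summarises the probes of a set, and can compress low signals such as those of Nqo1. Values ran from 1.33 to 15.54 and array medians from 3.8 to 4.1; the number of arrays limits the precision.

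Probe sets were named by the platform annotation: 20380 had 1 gene symbol and were used, 691 had several, 1555 had none and 64 were controls. For a gene, the probe set with the highest mean over all arrays was taken (4956 genes had several). Genes with log2 above 4 in at least 3 arrays were tested, which drops dim genes and takes no account of group. Each comparison was a contrast in 1 limma 3.58.1 model (R 4.3.3) of the 6 groups with 15 residual degrees of freedom, two-sided, adjusted by Benjamini-Hochberg. The models were tested on simulated data. Promoter windows and names were from RefSeq, GRCm38.p6. Figures used matplotlib 3.10.9 in Python 3.11.15.

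The members, lists and alternatives were chosen with earlier results of these data known. Named were all members, up to 3 called genes of each list by smallest p, the 3 genes most correlated with a member, and markers that moved with a result. Some of the correlated genes are left out of the text. Day 0 and later samples of a mouse share its number in the labels. In 9 such pairs deviations from group means correlated at −0.0568 to 0.303 (median 0.119; −0.0107 for other samples of different mice and groups), and the mouse was tried as a random block (correlation 0.108) and, in KO, a fixed block.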

Additional observations from a re-analysis of the deposited data

How the results depend on the processing

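Other settings left out the filter or raised it to log2 6, averaged the probe sets of a gene or took each alone, normalized by quantiles or by array medians, and used eBayes with trend and robust, only the groups compared, the mouse as a block, or fewer arrays (without the 3 of a Gapdh difference above 1, or without each in turn). The members called between genotypes at day 0, 2 in the report, were 1 with the mean of probe sets. They were 3 with quantile normalization, 3 with only the groups compared and 0 to 3 with an array left out. On day 2, 0 in the report, they were 0 to 2 with an array left out. In control liver they were 0 to 1 on day 2, 0 in the report, with an array left out. For control day 6, 1 in the report, they were 0 with no filter, 0 with the mean of probe sets, 0 with only the groups compared and 0 to 2 with an array left out. The cause of these changes was not tested. With the mouse as a replicate block the counts were 2 at day 0, 0 on days 2 and 6 between genotypes, 0 for the KO days and 1 for control day 6, and the block ended or added no call of a member.

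Of the differences of 8 members in 9 comparisons, the 3 called kept their sign under every alternative run. Of the 69 not called, 40 changed sign under at least 1 alternative and 5 were called under at least 1. The filter at log2 6 leaves no value for Nqo1. Dim probe sets carry little over background, so the Nqo1 values and the 2 weak Txnrd1 probe sets are the least certain.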

Other observations

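Lists of other liver cells gave no call in any of the 9 comparisons for bile duct (2 tested of 7), endothelial (6 tested of 6) or erythroid markers (2 tested of 9), by limma with the same threshold. At an unadjusted p under 0.05 the counts per comparison were 0 to 1, 0 to 3 and 0 to 1, against 392 to 1987 of all 7320 genes. Erythroid marker means, given because heme is the substrate of Hmox1, ran from 4.18 to 4.42 in control day 0 lobes, 3.49 to 3.98 in KO day 0 lobes, and 3.41 to 4.65 in KO liver on day 6, with Epb42 and Hba-a1 at or under 4 on every array. Bile duct marker means ran from 3.14 to 3.25 in control and 3.24 to 4.60 in KO day 0 lobes, with Cldn7 at or under 4 on every array.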
